A study of Mus musculus with 6 samples.

Results

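The 34 genes described here are transcribed late in the male germ line, in spermatocytes from the pachytene stage of meiosis onward and in spermatids, except for a few that mark the start of meiotic recombination. They were taken by gene symbol, 34 of the 18194 genes measured, with 1 value per gene from its brightest probe set that names a single gene, and dim genes were kept. RNA of whole testes was measured on 6 Affymetrix arrays, 3 from SCARKO-jsd mice and 3 from jsd mice. SCARKO-jsd mice were 12 weeks old and carried the jsd mutation in Utp14b together with a conditional knockout made in Sertoli cells, which nurse the germ line. The jsd mice were also 12 weeks old and carried the jsd mutation alone, so both groups lacked the normal Utp14b. The labels spell the double genotype in 3 ways (SCARKO-jsd, SCARCO-jsd and SCARO-jsd), taken here as 1 genotype, and the sources used here do not give the Cre driver of the knockout. The series names 3 mice for each genotype, but the labels do not tie an array to a mouse, so p-values speak only of the spread between these 6 samples, which may be technical.

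Male germ cells divide as spermatogonia, pass meiosis as spermatocytes and then reshape into sperm as spermatids. Meiotic entry switches on genes that break, pair and recombine chromosomes. Pachytene spermatocytes and round spermatids then turn on testis versions of metabolic enzymes and build the acrosome and the tail, and late spermatids replace histones first with transition proteins and then with protamines. In adult jsd males the tubules keep spermatogonia and Sertoli cells but few later germ cells, so the genes act as a read on how far germ cells had gone in each testis.

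Values are log2 expression as the authors deposited it, and each difference is SCARKO-jsd minus jsd, so that 1 unit is a doubling. A dim limit of 6.64 marks the value under which 40% of all gene means lay. Brightness depends on the probes of a probe set, so levels of different genes are not ranked against each other. One array stood apart before any comparison. SCARKO-jsd 2 had a 3′ minus 5′ difference of 1.66 log2 units for beta-actin, a sign of RNA quality, against 0.70 to 0.98 on the other arrays, and its highest correlation with another array was 0.981, against at least 0.995 for the others. The values of the 34 genes lay 0.12 above their own means in SCARKO-jsd 2 at the median, as did those of all genes (0.12). Differences of single genes that rest on that array are therefore also given without it, while medians of lists are not.

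Most of the 34 genes were dim in both genotypes, and few differed between them. The mean over all arrays was at or below the dim limit for 28 genes and above it for Meig1, Hspa2, Crem, Odf2, Tcp11 and Prm1. Group means of the 34 genes ran between 3.31 and 9.49 in SCARKO-jsd testes and between 3.38 and 9.76 in jsd testes. Per array, the median over the 34 genes was 5.14, 5.55 and 5.59 in SCARKO-jsd 1, 2 and 3, against 5.14, 5.33 and 5.20 in jsd 1, 2 and 3, while the median over all genes lay between 7.46 and 7.71. In bulk RNA, fewer cells of a type and less RNA per cell cannot be told apart.

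Hormad1 and Meig1 rose in SCARKO-jsd testes, 0 of the 34 genes fell, and 32 did not pass the test (limma, Benjamini-Hochberg adjusted p under 0.05 over all 18194 genes). Among all genes, 2.26% were called, 1.22% as higher and 1.04% as lower in SCARKO-jsd testes, and among the genes at or below the dim limit 0.962% were called. At an unadjusted p under 0.05 there were 4 of the 34 genes, all higher, with Dmc1 and Pdha2 beside the called pair, against 14.5% of all genes at that p and 9.57% at that p with SCARKO-jsd higher, so the share is near that of all genes. Of the 34 differences, 25 were above 0 and 9 below, with a median of 0.09, and of all genes 11229 were above and 6956 below, with a median of 0.04. That balance depended on the scaling. With each array centred on its median, 18 of the 34 were above 0 and 15 below, with a median of 0.0045, and of all genes 7205 were above and 10977 below, with a median of -0.04. For 5 of the 34 genes the SCARKO-jsd and jsd arrays did not overlap, each higher in SCARKO-jsd testes, where 20.5% of all genes did not overlap and 13.4% did so with SCARKO-jsd higher. With 3 arrays a group, the 95% interval of a difference reached 0.31 to either side at the median of the 34 genes, before any adjustment for the number of genes tested. At the adjusted threshold, differences of 0.69 (Dmc1) and 0.85 (Pdha2) did not pass. The count of 2 called genes was 1 without SCARKO-jsd 1, SCARKO-jsd 3 or jsd 3 and 0 without jsd 1 or jsd 2.

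**Figure D1:**
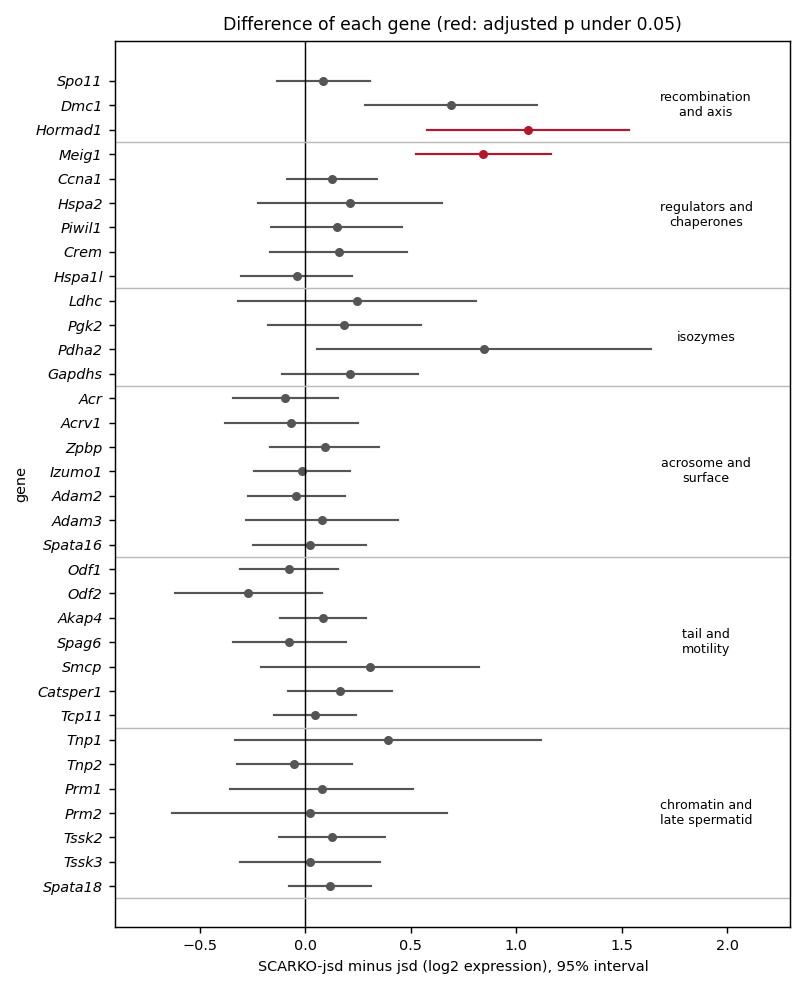
Differences of the 34 genes, SCARKO-jsd minus jsd in log2 expression (horizontal axis), by role; points are limma estimates and lines their 95% intervals, with the called genes in red. The intervals of Hormad1 (0.58 to 1.53) and Meig1 (0.52 to 1.16) lie right of 0, and those of Dmc1 (0.28 to 1.10) and Pdha2 (0.06 to 1.64) do too, without passing the adjusted threshold.

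Genes of meiotic recombination and the chromosome axis had the highest median difference of the 6 role groups, 0.69 over 3 genes. That median is the value of the brightest probe set of Dmc1, which did not pass and whose second probe set differed by -0.02. Spo11 makes the DNA breaks that start recombination, Dmc1 is the meiotic recombinase that repairs them, and Hormad1 lies on unsynapsed chromosome axes. Hormad1 was 4.92, 5.78 and 5.15 in SCARKO-jsd 1, 2 and 3, against 4.28, 4.34 and 4.06 in jsd 1, 2 and 3. Every SCARKO-jsd array was above every jsd array, and all 6 values were below the dim limit, which leaves the size of the change uncertain. The means were 5.28 ± 0.44 in SCARKO-jsd and 4.23 ± 0.14 in jsd testes (SD, n = 3 each), a difference of 1.06 ± 0.21 (SE), 2.08-fold, with a limma adjusted p of 0.0445. Without SCARKO-jsd 2 the difference was 0.81 with a limma adjusted p of 0.00789, whereas the call was lost without SCARKO-jsd 3 (adjusted p = 0.118), jsd 1 (0.180), jsd 2 (0.134) or jsd 3 (0.142).

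Dmc1 did not pass. Its brightest probe set read 5.80, 6.16 and 5.89 in SCARKO-jsd 1, 2 and 3, against 4.88, 5.50 and 5.41 in jsd 1, 2 and 3, with no overlap between the groups. The difference was 0.69 ± 0.18 (SE), with a limma adjusted p of 0.104. A second probe set of nearly the same brightness had means of 5.57 in SCARKO-jsd and 5.59 in jsd testes, a difference of -0.02, so the probe sets of Dmc1 disagree, and their mean differed by 0.33. Spo11 was 4.967, 5.227 and 5.062 in SCARKO-jsd 1, 2 and 3, against 4.988, 4.997 and 5.014 in jsd 1, 2 and 3, and the groups overlapped. The 95% interval of its difference ran between -0.13 and 0.31.

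Meig1 was the only one of the 6 meiotic regulators and chaperones that passed. It encodes a protein first found in meiotic germ cells and needed in mouse spermatids to build the manchette, the microtubule skirt around the nucleus. Meig1 was 8.89, 8.94 and 8.62 in SCARKO-jsd 1, 2 and 3, against 7.76, 7.97 and 8.20 in jsd 1, 2 and 3. The groups did not overlap and all 6 values were above the dim limit. The means were 8.82 ± 0.17 in SCARKO-jsd and 7.97 ± 0.22 in jsd testes (SD, n = 3 each), a difference of 0.84 ± 0.14 (SE), 1.80-fold, with a limma adjusted p of 0.0228. Without SCARKO-jsd 2 the difference was 0.78 with a limma adjusted p of 0.0195, and the call was lost without SCARKO-jsd 1 (adjusted p = 0.0554), jsd 1 (0.109) or jsd 2 (0.111).

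The other 5 regulators and chaperones stayed within the noise of the test. Crem, a transcription factor that activates many spermatid genes and has shorter repressor forms in other tissues, was 7.31, 7.77 and 7.33 in SCARKO-jsd 1, 2 and 3, against 7.18, 7.41 and 7.36 in jsd 1, 2 and 3. The groups overlapped, and its 4 probe sets split evenly, with differences of 0.16, -0.01, -0.15 and 0.10 in order of brightness. Hspa2, the chaperone of pachytene spermatocytes, was 8.31, 8.999 and 8.32 in SCARKO-jsd 1, 2 and 3, against 8.39, 8.44 and 8.16 in jsd 1, 2 and 3. Its one high value came from SCARKO-jsd 2, and without that array the difference was -0.01. Ccna1, the cyclin of late spermatocytes, was at most 3.81 on every array with no overlap between the groups and a difference of 0.13 ± 0.09 (SE). Piwil1, which binds the piRNAs of pachytene cells and spermatids, differed by 0.15 ± 0.13 (SE), and Hspa1l, a spermatid relative of Hsp70, by -0.04 ± 0.11 (SE).

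The plot of all 34 genes by array shows Dmc1, Hormad1 and Meig1 high in the SCARKO-jsd columns, while the groups overlapped for Spo11, Hspa2, Crem, Piwil1 and Hspa1l.

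**Figure D2:**
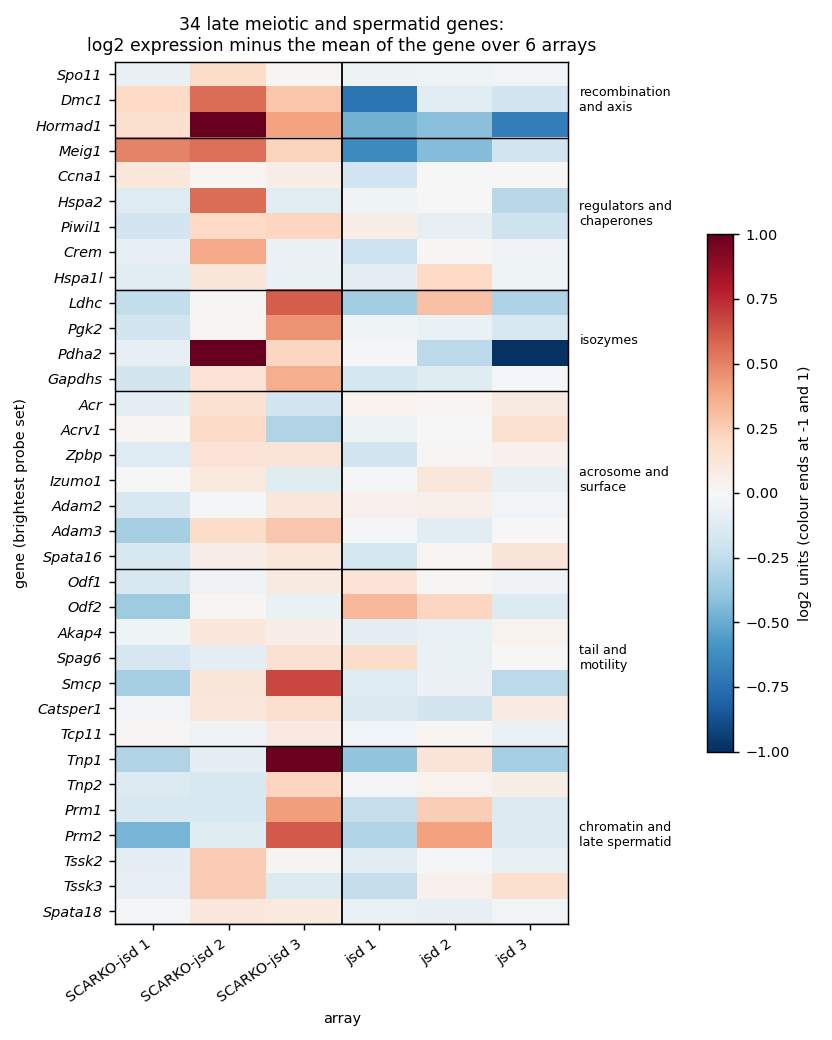
Log2 expression of each of the 34 genes (rows, by role) on each array (columns, SCARKO-jsd left of jsd), minus the mean of the gene over the 6 arrays; red is above and blue below that mean. Dmc1, Hormad1 and Meig1 are above it on all 3 SCARKO-jsd arrays, while Prm1, Prm2 and Ldhc are above it on SCARKO-jsd 3 and jsd 2.

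The 4 germ cell isozymes are copies of metabolic enzymes that stand in for the somatic forms in spermatocytes and spermatids, and 0 of them passed. Pdha2, the retroposed subunit of pyruvate dehydrogenase, was 4.73, 5.96 and 5.02 in SCARKO-jsd 1, 2 and 3, against 4.80, 4.55 and 3.82 in jsd 1, 2 and 3. The groups overlapped, because SCARKO-jsd 1 was below jsd 1. The difference was 0.85 ± 0.34 (SE) with a limma adjusted p of 0.305, and 0.49 without SCARKO-jsd 2. Pgk2, the autosomal phosphoglycerate kinase, differed by 0.19 ± 0.16 (SE), and Gapdhs, the glycolytic dehydrogenase of the sperm tail, by 0.21 ± 0.14 (SE). Both had their highest value in SCARKO-jsd 3, 4.67 for Pgk2 and 6.84 for Gapdhs. Ldhc, the lactate dehydrogenase of spermatocytes and sperm, differed by 0.24 ± 0.24 (SE), and its values are given with those of the protamines.

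The 7 genes of the acrosome and the sperm surface had a median difference of -0.02 and overlapping groups for each gene, and 0 of them passed. Acr, the acrosomal protease acrosin, was 5.82, 6.07 and 5.72 in SCARKO-jsd 1, 2 and 3, against 5.95, 5.94 and 6.005 in jsd 1, 2 and 3. Izumo1, the sperm protein that binds its egg receptor at fusion, was 6.004, 6.09 and 5.88 in SCARKO-jsd 1, 2 and 3, against 5.99, 6.11 and 5.93 in jsd 1, 2 and 3. The 95% intervals of the differences ran between -0.34 and 0.16 for Acr and between -0.24 and 0.21 for Izumo1. Acrv1, an acrosomal matrix protein, differed by -0.07 ± 0.14 and Zpbp, which binds the zona pellucida, by 0.09 ± 0.11 (SE). Adam2 and Adam3, membrane proteins that mouse sperm need to bind the zona, differed by -0.04 ± 0.10 and 0.08 ± 0.16 (SE). Spata16, a Golgi protein of acrosome formation, differed by 0.02 ± 0.12 (SE).

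The 7 tail and motility genes had a median difference of 0.05, or -0.04 with median centring, and 0 of them passed. Odf2, a protein of the outer dense fibres that is also part of centrosomes in somatic cells, was 9.27, 9.65 and 9.56 in SCARKO-jsd 1, 2 and 3, against 9.96, 9.84 and 9.49 in jsd 1, 2 and 3. The groups overlapped at jsd 3. Its difference of -0.27 ± 0.15 (SE) was the lowest of the 34 genes, with a limma adjusted p of 0.478, and 4 of its 5 probe sets were lower in SCARKO-jsd testes. Odf1, the other fibre protein, was 5.29, 5.42 and 5.54 in SCARKO-jsd 1, 2 and 3, against 5.59, 5.47 and 5.42 in jsd 1, 2 and 3. The groups overlapped, and all 3 probe sets of Odf1 were under the dim limit. Akap4, the main protein of the fibrous sheath, differed by 0.08 ± 0.09, Spag6, of the axoneme's central pair, by -0.08 ± 0.12, and Tcp11 by 0.05 ± 0.08 (SE). Catsper1, the pore subunit of the sperm calcium channel, differed by 0.16 ± 0.11 (SE). Smcp, a protein of the sperm mitochondrial capsule, was 4.32, 4.78 and 5.32 in SCARKO-jsd 1, 2 and 3, against 4.53, 4.60 and 4.38 in jsd 1, 2 and 3. Its difference of 0.30 ± 0.22 (SE) rested on SCARKO-jsd 3 and was 0.05 without that array.

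Of the 7 chromatin and late spermatid genes 0 passed, with a median difference of 0.08, or -0.01 with median centring. Tnp1 and Tnp2 encode the transition proteins, Prm1 and Prm2 the protamines, and Tssk2 and Tssk3 kinases of spermatids. Tnp1 was 4.71, 4.93 and 5.999 in SCARKO-jsd 1, 2 and 3, against 4.62, 5.15 and 4.69 in jsd 1, 2 and 3. SCARKO-jsd 3 lay far above the other arrays and the groups overlapped. The difference was 0.39 ± 0.32 (SE), with a 95% interval between -0.33 and 1.12, and it was -0.0002 without SCARKO-jsd 3. The second probe set of Tnp1 was highest in SCARKO-jsd 2 instead, at 4.75, 5.60 and 4.99 in SCARKO-jsd 1, 2 and 3, against 4.54, 4.83 and 4.41 in jsd 1, 2 and 3, so its probe sets disagree on the high array. Tnp2 was 3.97, 3.94 and 4.32 in SCARKO-jsd 1, 2 and 3, against 4.09, 4.14 and 4.17 in jsd 1, 2 and 3, with a difference of -0.05 ± 0.12 (SE). Tssk2 differed by 0.13 ± 0.11 and Tssk3 by 0.02 ± 0.14 (SE). Spata18, a mitochondrial protein named for its expression in spermatids, was higher on every SCARKO-jsd array, by 0.12 ± 0.08 (SE), with no overlap and a limma adjusted p that did not pass.

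Some spermatid genes varied within the groups. Prm1 and Ldhc had probe sets with higher values on SCARKO-jsd 3 and jsd 2 than on the other arrays of the same genotype. The lower values lay near the lowest of the arrays (2.58) and most of the higher ones under the dim limit, so the sizes are uncertain. The second probe set of Prm1 read 3.02, 4.12 and 6.09 in SCARKO-jsd 1, 2 and 3, against 3.32, 6.86 and 3.92 in jsd 1, 2 and 3. SCARKO-jsd 3 was 2.52 log2 units above the mean of the other SCARKO-jsd arrays and jsd 2 was 3.24 above the mean of the other jsd arrays. The third probe set of Prm1 read 3.11, 4.30 and 5.38 in SCARKO-jsd 1, 2 and 3, against 3.09, 6.62 and 3.42 in jsd 1, 2 and 3, with the same arrays on top. The brightest probe set of Prm1 had a narrower spread, at 7.20, 7.19 and 7.77 in SCARKO-jsd 1, 2 and 3, against 7.12, 7.59 and 7.21 in jsd 1, 2 and 3, with the same array highest in each group. All 3 probe sets of Prm1 carry the suffix that Affymetrix gives to sets with probes that may match other transcripts.

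The second probe set of Ldhc read 3.57, 4.05 and 7.10 in SCARKO-jsd 1, 2 and 3, against 3.60, 6.06 and 4.11 in jsd 1, 2 and 3. That put SCARKO-jsd 3 higher by 3.29 and jsd 2 by 2.20 than the mean of the other arrays of the group. The brightest probe set of Ldhc read 5.39, 5.64 and 6.24 in SCARKO-jsd 1, 2 and 3, against 5.28, 5.92 and 5.33 in jsd 1, 2 and 3. Prm2, with 1 probe set, was 5.18, 5.53 and 6.26 in SCARKO-jsd 1, 2 and 3, against 5.35, 6.05 and 5.51 in jsd 1, 2 and 3, again highest on the same arrays. Tnp1 and Smcp followed in SCARKO-jsd 3, with a smaller rise in jsd 2 for Tnp1 (0.49 above the mean of the other jsd arrays) and for Smcp (0.14).

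**Figure D3:**
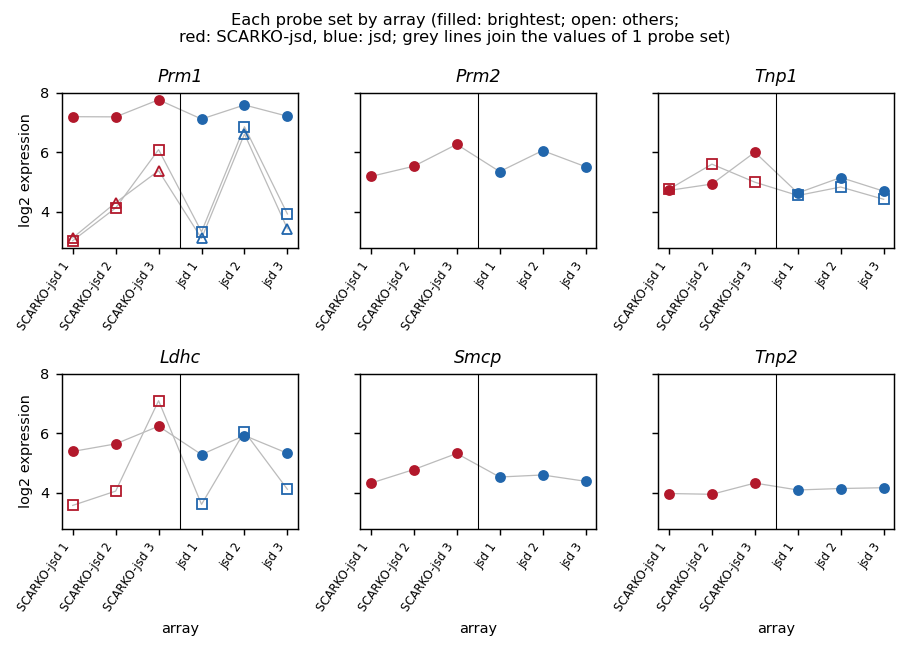
Log2 expression (vertical axis) of every probe set of 6 late genes on each array, SCARKO-jsd in red to the left of jsd in blue; filled points are the brightest probe set and open points the others. The open points of Prm1 and Ldhc are between 5.38 and 7.10 on SCARKO-jsd 3 and jsd 2 and at most 4.30 on the other arrays, while Tnp2 is nearly flat.

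In all, SCARKO-jsd 3 and jsd 2 were both the highest of their groups for 7 of the 34 genes, against 5.52% of all genes, and for 12 of the 53 probe sets of these genes, against 5.94% of the probe sets of all genes. The probe sets of a gene and neighbouring genes share their RNA, so these counts are a description. At least 1 log2 unit above the mean of the other arrays of the group, in both groups, a size chosen after the values were seen, were 3 of the 53 probe sets and 4 of all 34958, namely those of Prm1 and Ldhc and 1 of the kinase gene Mapk8. The Mapk8 probe set was 8.07, 5.70 and 8.22 in SCARKO-jsd 1, 2 and 3, against 5.82, 7.35 and 5.76 in jsd 1, 2 and 3, so SCARKO-jsd 1 was nearly as high as SCARKO-jsd 3. Among the other late germ cell genes, 20 of 117 had the same arrays on top. Akap3, a fibrous sheath protein chosen after its values were seen, was 4.61, 4.67 and 5.51 in SCARKO-jsd 1, 2 and 3, against 4.31, 5.12 and 4.56 in jsd 1, 2 and 3. Fabp9, a fatty acid binding protein of the sperm head also chosen in this way, was 4.41, 4.86 and 5.54 in SCARKO-jsd 1, 2 and 3, against 4.57, 5.22 and 4.71 in jsd 1, 2 and 3.

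These arrays did not stand out in RNA quality, with 3′ minus 5′ differences for beta-actin of 0.79 in SCARKO-jsd 3 and 0.72 in jsd 2. Of the macrophage markers, 6 of 9 were also highest on both arrays. The summed linear level of those markers was 13150, 10970 and 14480 in SCARKO-jsd 1, 2 and 3, against 13080, 14180 and 12740 in jsd 1, 2 and 3. Leydig cell markers, 1 of 5 with that order, summed to 55260, 61500 and 65630 in SCARKO-jsd 1, 2 and 3, against 57020, 62830 and 58680 in jsd 1, 2 and 3. The part of these cells in the order of the arrays was not tested. The 7 measured epididymis and duct markers were all at or below the dim limit, and their sum was at most 180.4 on SCARKO-jsd 3 and jsd 2 and at most 215 on the other arrays. With SCARKO-jsd 3 and jsd 2 left out together, the difference was 0.03 for Prm1, -0.07 for Prm2, 0.21 for Ldhc and 0.16 for Tnp1, against 0.08, 0.02, 0.24 and 0.39 with all arrays.

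Promoters are shown for Prm1, Prm2, Tnp1 and Ldhc, whose brightest probe sets were highest on SCARKO-jsd 3 and jsd 2 in their groups. Adam2, Smcp and Tcp11 had the same arrays on top, and their promoters are not shown. The genes were picked after the values were seen, and the second probe set of Tnp1 was highest on SCARKO-jsd 2 instead of SCARKO-jsd 3. The promoter of Izumo1, the member with a full cAMP response element, is shown for comparison. Each line gives the 120 bases before an annotated start on the gene's own strand, from RefSeq (GRCm38.p6). Capitals mark TGACGT or TGACGTCA, the short and full forms of the element that CREB and CREM proteins bind. The windows are chr16:10796824-10796943 on the minus strand for Prm1, chr16:10792106-10792225 on the minus strand for Prm2, chr1:73015900-73016019 on the minus strand for Tnp1, chr7:46861143-46861262 on the plus strand for Ldhc and chr7:45621691-45621810 on the plus strand for Izumo1.
Prm1: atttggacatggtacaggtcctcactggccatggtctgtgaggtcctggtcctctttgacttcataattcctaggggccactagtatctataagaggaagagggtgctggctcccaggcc
Prm2: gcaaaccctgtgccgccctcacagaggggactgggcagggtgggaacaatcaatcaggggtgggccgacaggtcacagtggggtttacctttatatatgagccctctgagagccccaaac
Tnp1: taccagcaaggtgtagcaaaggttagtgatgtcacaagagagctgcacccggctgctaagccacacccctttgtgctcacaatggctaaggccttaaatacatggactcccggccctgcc
Ldhc: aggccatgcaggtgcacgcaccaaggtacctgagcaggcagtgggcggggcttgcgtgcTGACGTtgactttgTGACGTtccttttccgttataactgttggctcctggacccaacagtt
Izumo1: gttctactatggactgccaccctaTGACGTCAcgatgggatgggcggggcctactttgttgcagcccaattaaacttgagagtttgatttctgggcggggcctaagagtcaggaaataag

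A RefSeq promoter entry was matched by symbol for 27 of the 34 genes. In windows of 250 bases before to 50 bases after the start, searched on both strands, TGACGTCA was found for Izumo1 alone, 1 of 27, against 2.03% of 27025 genes. TGACGT, which the full form contains, was found for 5 of the 27 genes (Ldhc, Izumo1, Gapdhs, Hspa1l and Spata18), against 8.37% of all genes. Ldhc holds 2 copies in the window shown, whose first bases lie at -61 and -47 relative to the start. The 120 bases before another annotated start of Ldhc, chr7:46861367-46861486 on the plus strand, hold neither form. These exact letters are not in the windows of Prm1, Prm2, Tnp1, Smcp and Tcp11, which says nothing of the factors that bind there. Of the 5 genes with the short form, Ldhc was the one with SCARKO-jsd 3 and jsd 2 both highest in their groups.

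Beside Hormad1 and Meig1, 3 genes of meiotic prophase rose. Other genes of meiotic prophase, 23 of 26 listed being measured, had 0 falls and a median difference of 0.39. An unadjusted p under 0.05 was reached by 13, all higher in SCARKO-jsd testes. Of all genes 2.26% were called, 14.5% reached that p, and 9.57% did so with SCARKO-jsd higher. At the median, the 23 genes deviated from their own means by 0.06, 0.30 and 0.14 in SCARKO-jsd 1, 2 and 3. In jsd 1, 2 and 3 these medians were -0.24, -0.19 and -0.36. The highest was that of SCARKO-jsd 2, and the list median was not computed without that array. Sycp3, of the lateral element of the synaptonemal complex, was 8.02, 8.34 and 8.13 in SCARKO-jsd 1, 2 and 3, against 6.61, 7.03 and 6.90 in jsd 1, 2 and 3, a difference of 1.31 ± 0.14 (SE) with a limma adjusted p of 0.00412. Syce1, of the central element, rose by 0.97 ± 0.15 (limma adjusted p = 0.0200) and Tex12, of the same element, by 0.83 ± 0.11 (SE, limma adjusted p = 0.0102). Their groups did not overlap. The call of Sycp3 held with any 1 array left out, that of Tex12 was lost without jsd 2 (limma adjusted p = 0.0681), and that of Syce1 was lost without SCARKO-jsd 3 (adjusted p = 0.0859), jsd 1 (0.0890), jsd 2 (0.0739) or jsd 3 (0.0646).

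**Figure D4:**
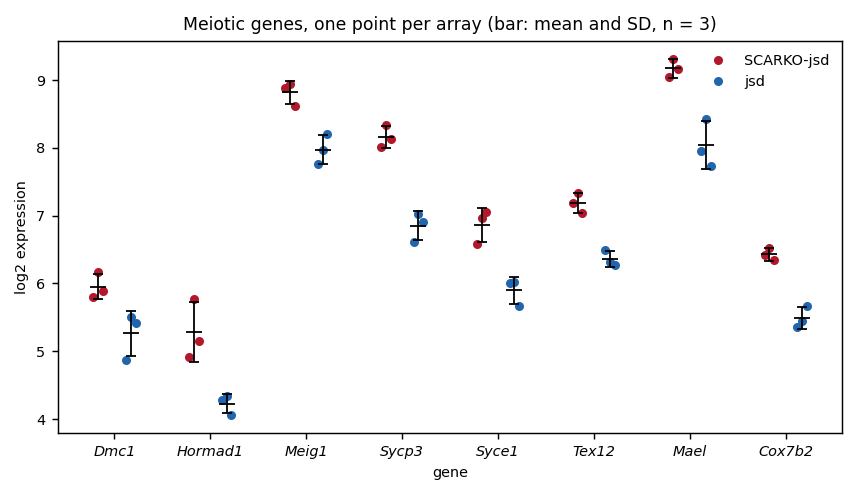
Log2 expression (vertical axis) of 3 of the 34 genes (Dmc1, Hormad1 and Meig1) and of 5 called genes of the other late germ cell lists on each array, SCARKO-jsd in red left of jsd in blue; bars are the mean and SD (n = 3). No gene shown has overlapping groups, and all but Dmc1 passed the adjusted threshold.

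Lists of other functions held 2 calls. Of 18 other regulators of late germ cells, 1 rose and 0 fell, with a median difference of 0.12. Mael, of the piRNA pathway, was 9.04, 9.32 and 9.17 in SCARKO-jsd 1, 2 and 3, against 7.96, 8.43 and 7.74 in jsd 1, 2 and 3, and rose by 1.13 ± 0.17 (SE, limma adjusted p = 0.0187), a call lost without SCARKO-jsd 3 (adjusted p = 0.0794) or jsd 1 (0.109). Ddx4, the germ cell RNA helicase that spermatogonia also make, differed by 1.06 ± 0.23 (SE, limma adjusted p = 0.0631), and Mybl1, a transcription factor of pachytene spermatocytes, by -0.45 ± 0.09 (SE, limma adjusted p = 0.0550). Of 13 other germ cell isozymes, 1 rose and 0 fell, with a median difference of 0.16. That gene was Cox7b2, a subunit of cytochrome oxidase, at 6.42, 6.53 and 6.34 in SCARKO-jsd 1, 2 and 3, against 5.35, 5.44 and 5.67 in jsd 1, 2 and 3 (0.94 ± 0.11 SE, limma adjusted p = 0.00739). Its call held with any 1 array left out, though all 6 values were below the dim limit. Cyct, the testis cytochrome c, differed by 0.68 ± 0.15 (SE, limma adjusted p = 0.0631) and Slc25a31, the germ cell ADP/ATP carrier, by 1.27 ± 0.29 (SE, limma adjusted p = 0.0788).

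The remaining lists had 0 calls by limma. Of 29 other acrosome and surface genes, 3 reached an unadjusted p under 0.05, with a median difference of 0.11. Tex101, a surface protein of germ cells from late spermatogonia onward, differed by 0.80 ± 0.18 (SE, limma adjusted p = 0.0686) and Spink2, an acrosomal protease inhibitor, by -0.47 ± 0.13 (SE, limma adjusted p = 0.144). Of 27 other tail and motility genes, 2 reached that p, Tekt4, a tektin of the flagellum, and Iqcg, with differences of 0.30 ± 0.10 and 0.39 ± 0.13 (SE), and the median was 0.13. Of 7 other spermatid chromatin genes, 0 reached it, and the median was -0.02. Over all 117 genes of these lists, 5 rose and 0 fell, or 4.27% called against 2.26% of all genes. The median difference was 0.15, against 0.04 for all genes. At the unadjusted p were 27 of the 117, 25 of them higher, against 14.5% and 9.57% of all genes. Of the 32 genes with no overlap 28 were higher in SCARKO-jsd testes. Among all genes 20.5% did not overlap, 3730 genes, of which 2442 were higher.

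**Figure D5:**
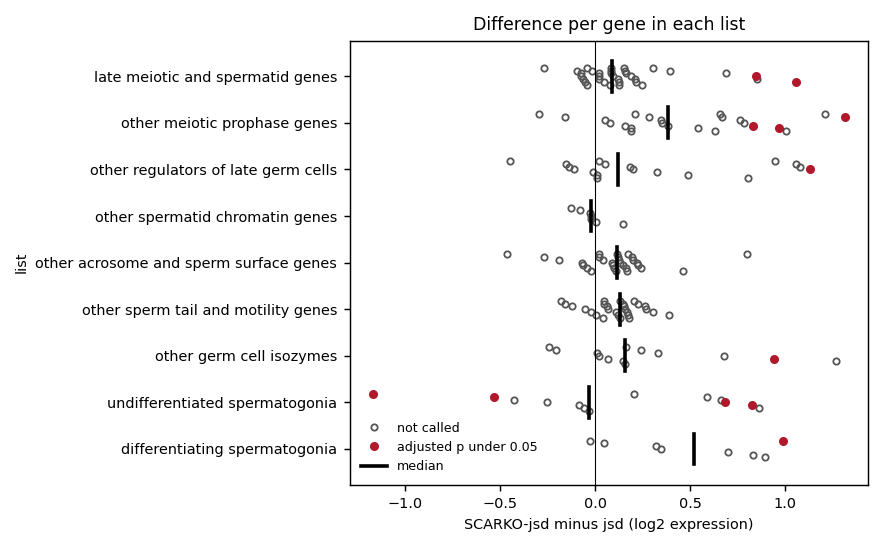
Difference of each gene, SCARKO-jsd minus jsd in log2 expression (horizontal axis), for the 34 genes, the other late germ cell lists and the markers of spermatogonia; filled red points passed the adjusted threshold and black bars are medians. Medians are 0.09 for the 34 genes, 0.39 for the other meiotic prophase genes, -0.02 for the other spermatid chromatin genes and 0.52 for differentiating spermatogonia.

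The calls among markers of spermatogonia, the cells before meiosis, went in both directions. Of 8 measured markers of differentiating spermatogonia, 1 rose and 0 fell, with a median difference of 0.52. At an unadjusted limma p under 0.05 were 6 of the 8, all higher in SCARKO-jsd testes. Of all genes 14.5% reached that p, and 9.57% did so with SCARKO-jsd higher. At the median, the 8 markers deviated from their own means by -0.06, 0.51 and 0.32 in SCARKO-jsd 1, 2 and 3. In jsd 1, 2 and 3 these medians were -0.21, -0.19 and -0.44. The highest was thus that of SCARKO-jsd 2, and the list median was not computed without that array. Stra8, which retinoic acid induces before meiosis, was 7.91, 8.51 and 8.61 in SCARKO-jsd 1, 2 and 3, against 7.39, 7.54 and 7.14 in jsd 1, 2 and 3, a difference of 0.99 ± 0.19 (SE, limma adjusted p = 0.0429). That call was lost without SCARKO-jsd 3 (adjusted p = 0.147), jsd 1 (0.179), jsd 2 (0.111) or jsd 3 (0.135). The summed linear level of the list was 3592, 4876 and 4154 in SCARKO-jsd 1, 2 and 3, against 4135, 4173 and 3221 in jsd 1, 2 and 3. These sums overlapped, but most of each came from Kit, with a log2 mean of 11.58 against at most 8.17 for the other markers. Kit differed by -0.03. Taken singly, 6 of the 8 markers had groups that did not overlap, each higher in SCARKO-jsd testes, as did 13.4% of all genes. Of 13 measured markers of undifferentiated spermatogonia, 2 rose, Uchl1 by 0.68 and Dazl by 0.82, and 2 fell, Id4 by 1.17 and Epcam by 0.53 on the log2 scale. All 4 calls were lost without SCARKO-jsd 3, jsd 1 or jsd 2, at limma adjusted p between 0.0827 and 0.188, those of Dazl and Epcam also without jsd 3 (0.132 and 0.112) and that of Epcam without SCARKO-jsd 1 (0.0820). That list summed to 6801, 7364 and 8022 in SCARKO-jsd 1, 2 and 3, against 7056, 6517 and 6290 in jsd 1, 2 and 3. Its median difference was -0.03, with 6 markers higher and 7 lower. An unadjusted limma p under 0.05 was reached by 8 of the 13, 5 of them higher in SCARKO-jsd testes. For 7 of the 13 the groups did not overlap, 4 of them higher. The share called was 30.8%, against 2.26% of all genes, of which 20.5% did not overlap. The part of spermatogonia in the rise of the meiotic genes was not tested.

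Of the somatic lists, the 13 Sertoli cell markers had 0 rises and 1 fall (Wt1, by 0.48 on the log2 scale), the 7 endothelial markers 0 rises and 1 fall (Kdr, by 0.79) and the 5 red blood cell markers 1 fall (Alas2, by 1.21). The calls of Wt1 and Kdr were lost without any 1 array other than SCARKO-jsd 2 (limma adjusted p between 0.0585 and 0.231), and that of Alas2 held. Of the 5 red blood cell markers 2 were higher and 3 lower in SCARKO-jsd testes, with a median difference of -0.08, so the fall was that of Alas2 alone. For comparison, 2.26% of all genes were called, 14.5% reached an unadjusted limma p under 0.05, and 9.57% did so with SCARKO-jsd higher. Of the 4 Sertoli cell markers at that p, 3 were higher in SCARKO-jsd testes. Among them, Krt18, a keratin of immature Sertoli cells, was 6.87, 8.61 and 8.08 in SCARKO-jsd 1, 2 and 3, against 6.09, 5.48 and 6.14 in jsd 1, 2 and 3, a difference of 1.95 ± 0.40 (SE, limma adjusted p = 0.0540), and Inha, the inhibin alpha subunit, differed by 0.33 ± 0.08 (SE, limma adjusted p = 0.102). Krt18 passed in 7 of 14 alternatives, among them the fit without SCARKO-jsd 2. Of the 7 endothelial markers 6 were higher, among them Vwf, by 0.53 ± 0.16 (SE, limma adjusted p = 0.170). At the median, the endothelial markers lay 0.56 above their own means in SCARKO-jsd 2, against -0.13 and -0.08 in SCARKO-jsd 1 and 3. In jsd 1, 2 and 3 these medians were 0.11, -0.01 and -0.38. The lean of the list was not computed without SCARKO-jsd 2. The Vwf difference ran from 0.40 to 0.64 over the alternatives, with 0 calls. The markers of Leydig cells (5), peritubular myoid cells (6) and macrophages (9) had 0 calls by limma, with 0, 0 and 1 at an unadjusted p under 0.05. The 7 markers of the epididymis and ducts had 0 calls and 1 at that p. Of 9 markers of motile ciliated cells, whose axonemes share parts with the sperm tail, Mlf1 rose by 0.81, and 7 were at or below the dim limit. The call of Mlf1 was lost without SCARKO-jsd 3, jsd 1 or jsd 2 (limma adjusted p between 0.0692 and 0.0824). That list summed to between 889 and 1019 in SCARKO-jsd testes and between 762 and 804 in jsd testes.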

How the data were processed

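Testis RNA was hybridised to 6 Affymetrix arrays, 3 SCARKO-jsd and 3 jsd. The authors deposited 1 log2 expression value per probe set and array, from RMA in affy according to the submitters' processing notes, which give no version. They ran from 2.58 to 14.84 with 0 missing. RMA sets the probe values of arrays to a shared distribution, so a shift of most transcripts in 1 direction cannot be measured. The deposited probe set values still had medians of 6.26 in SCARKO-jsd 2 and 6.40 to 6.41 on the other arrays. GEO's platform annotation gave 1 symbol for 34958 of 45101 probe sets, several for 932 and none for 9211. Each of 18194 genes was read from its brightest probe set by mean, with no filter on dim genes, since most of the 34 genes are dim.

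The test was limma's moderated fit without trend (version 3.58.1, R 4.3.3), genotype as the only term, two-sided, Benjamini-Hochberg over all genes, threshold 0.05, tested on simulated data. The members, their roles and all lists were chosen with earlier results of these data known. Named genes are all members and, of each other list, the called genes and up to 3 with the smallest p. The gene knocked out is not reported here. Alternatives were filters, probe set summaries, scalings, weights, a replicate block and arrays left out. Deviations of same-numbered arrays correlated at -0.17, 0.18 and 0.18, so they were not taken as pairs. Python 3.11.15 and matplotlib 3.10.9 made the figures. For arrays, their number limits the precision.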

Additional observations from a re-analysis of the deposited data

How the results depend on the processing

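The precision is limited by 3 arrays a group and by signal near background for most of the genes. The count of called genes, 412 with 222 higher and 190 lower, was 189 with every probe set tested by itself, 769 (300 higher, 469 lower) with median centring, 693 with a further quantile normalization and 1343 with arrayWeights (gene-by-gene method), and ranged from 86 to 771 with 1 array left out. Of the 34 genes, 1 was called without genes in the lowest 40% (Hormad1 was not tested) and 1 with the mean of probe sets, 0 with every probe set tested by itself, and 0 to 2 with 1 array left out. The other late germ cell genes, 5 called, had 3 without genes in the lowest 40%, 3 with every probe set, 12 with median centring, 11 with quantile normalization, 18 with arrayWeights, 11 with the replicate block, and 3 to 9 with 1 array left out. The markers, 9 called, had 3 with every probe set, 14 with median centring, 14 with quantile normalization, 19 with arrayWeights and 1 to 13 with 1 array left out. Leaving out SCARKO-jsd 3 and jsd 2 together, chosen after seeing the data, left 2 arrays a group and 19 called genes, 0 of the 34, 0 of the other late germ cell genes and 0 of the markers. The replicate block called 444 genes and 3 of the 34, Dmc1 being the third (limma adjusted p = 0.0360), and SCARKO-jsd 1 correlated best with jsd 3, not jsd 1. Over the alternatives the limma adjusted p ranged from 0.00407 to 0.316 for Hormad1 and from 0.00673 to 0.201 for Meig1, with both differences above 0 throughout. Of the other genes, 14 of the 34 changed sign in some alternative, none of them called in any. The cause was not tested.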
